A study of Mus musculus with 6 samples.

Results

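The ER chaperone and secretory pathway genes are 43 mouse genes that fold, check and export proteins entering the endoplasmic reticulum (ER). They were taken by name from a list of ER chaperones, regulators of the unfolded protein response, collagen folding factors, translocon subunits and COPII coat proteins. The rule uses names and no measured value, and all 43 of 43 symbols were found among the 54752 gene identifiers of the count table. Expression was measured by RNA-seq in NIH/3T3 cells, an established line of mouse embryonic fibroblasts, with 2 replicate libraries in each of 3 groups, all kept in culture for 72 h. The vehicle group received PBS. The TGF-β1 + DMSO group received 1 ng/ml of the cytokine TGFB1 (TGF-β1), which drives fibroblasts towards the contractile, matrix-producing myofibroblast state, together with DMSO as solvent. The TGF-β1 + BI6727 group received the same dose of TGF-β1 with 5 μM BI6727 (Volasertib), an inhibitor of the mitotic kinase PLK1, for which the labels give no solvent. By the labels no group received DMSO without TGF-β1, so TGF-β1 and DMSO cannot be told apart in comparisons with vehicle. The study's text describes the control in more than one way, as medium alone or as DMSO, and the labels were followed here. The study's methods speak of biological replicates, but in a number that differs from the libraries labelled, and the labels do not say whether the replicates were separate cultures. If they were not, p-values measure only the technical spread between these libraries.

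Proteins bound for secretion enter the ER through the SEC61 translocon, fold with the help of BiP (Hspa5) and its cochaperones, lectin chaperones and disulfide isomerases, and leave in COPII vesicles, while KDEL receptors return escaped chaperones from the Golgi. When unfolded proteins build up, the sensors IRE1 (Ern1), ATF6 and PERK start the unfolded protein response (UPR): IRE1 splices the mRNA of Xbp1, ATF6 is cut into an active transcription factor, and PERK slows translation and raises ATF4. Fibroblasts that make matrix depend on this machinery for collagen, which needs the chaperone HSP47 (Serpinh1), prolyl isomerases and the cargo receptor TANGO1 (Mia3) to leave the ER. A change in mRNA level does not report splicing of Xbp1 or cleavage of ATF6.

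Libraries held 18362378 to 24452153 counts on genes. Genes with at least 10 CPM (counts relative to the library total) in more than 3 libraries were tested, which left 9518 genes and 42 of the 43 members. All 10 fibroblast markers passed, with a summed level of 8425 to 11176 normalized CPM, and none of the 20 markers of epithelium, leukocytes, endothelium, skeletal muscle or adipocytes did. Endothelial markers summed to 0.312 and 0.910 CPM in the vehicle libraries, 2.89 and 3.77 with TGF-β1 + DMSO and 2.00 and 2.65 with TGF-β1 + BI6727, with Kdr at 0 in every library. Leukocyte markers, with Cd3e at 0 in every library, summed to 3.84 and 5.05 CPM in vehicle at the lowest and highest, 3.04 and 3.13 with TGF-β1 + DMSO and 3.39 and 3.68 with TGF-β1 + BI6727. Adipocyte markers, nearly all Fabp4, summed to 1.77 to 2.00 CPM, 0.579 to 1.54 and 0.373 to 0.668 in the same order. Epithelial and muscle markers overlapped between vehicle and both treated groups. Mitochondrial genes held 3.41% and 5.58% of counts in the TGF-β1 + DMSO replicates and 4.48% to 4.77% in the other 4 libraries. The part of these differences in the results was not tested. In bulk RNA, fewer cells of a type and less RNA per cell cannot be told apart. The TGF-β1 + DMSO replicates stood apart from each other by gene length. Across the 42 members tested, the log2 difference between replicate 1 and replicate 2 followed exonic length with Pearson's r = 0.77 and Spearman's rho = 0.76 in this group, against r = -0.27 in vehicle and -0.050 with BI6727. Genes share their libraries, so these are descriptions without a test. The SD of the replicate difference over members was 0.32 log2 units for TGF-β1 + DMSO, 0.12 for vehicle and 0.11 for BI6727. Short members such as Sec61b read higher in replicate 2 (27.9 against 42.0 normalized CPM) and long members such as Sec31a read higher in replicate 1 (293 against 188). Results are therefore also given without each TGF-β1 + DMSO library and with length offsets, which take each library's trend with length out of the fit.

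**Figure D1:**
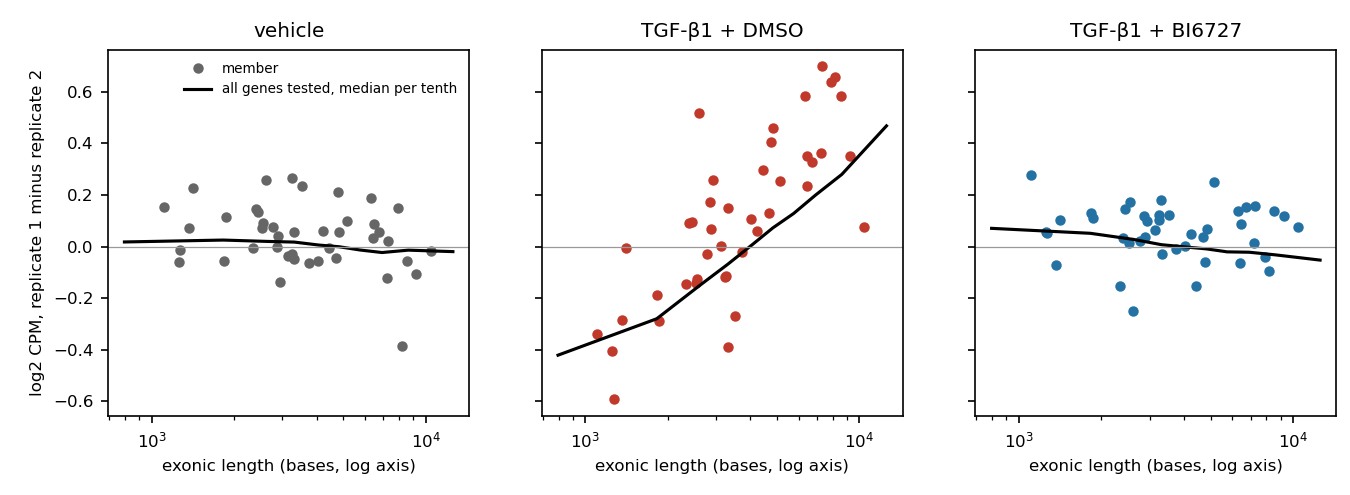
Difference in log2 CPM between replicate 1 and replicate 2 of each group (y axis) against exonic length in bases on a log axis (x axis), with a point for each of the 42 members tested and a line for the median of all 9518 genes in 10 bins by length. In TGF-β1 + DMSO the line climbs from -0.42 in the shortest bin to 0.47 in the longest and the members follow it, while the vehicle and BI6727 panels stay near 0.

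Per length, the members spanned a wide range of levels. In vehicle cells the lectin chaperone Calr stood at 749 ± 20.5 TPM (counts per base of exon, scaled to a common total, mean ± SD, n = 2), the disulfide isomerase P4hb at 677 ± 4.78 TPM and its relative Pdia3 at 602 ± 6.61 TPM. These SDs do not overlap. Serpinh1 (HSP47) at 399 ± 29.2 TPM, Hsp90b1 (GRP94) at 370.1 ± 7.04 TPM and Hspa5 (BiP) at 358 ± 13.1 TPM followed, and neighbours among these lay within each other's spread. The transcription factors and sensors were at the other end: Xbp1 had 46.4 ± 6.43 TPM, Creb3l2 17.3 ± 0.320, Atf6 15.0 ± 0.664, Creb3l1 5.43 ± 0.730 and Ern1 4.89 ± 0.881. The spreads of Creb3l1 and Ern1 overlapped, and Creb3l1 ranked 41 of 43. The translocon subunit Sec61g was lowest at 1.94 ± 0.0864 TPM and was the member that did not pass the filter, with 1.61 to 2.70 normalized CPM over the 6 libraries. With a more permissive filter that tested it, its log2 fold change was 0.012 (SE 0.31, adjusted p = 0.982, edgeR quasi-likelihood test) between TGF-β1 + DMSO and vehicle. The 43 members together took 0.988% and 0.976% of all counts in the vehicle libraries, 0.975% and 0.843% with TGF-β1 + DMSO, and 0.943% and 0.914% with BI6727. TGF-β1 + DMSO replicate 2 was the lowest of the 6, and its replicate 1 lay beside the vehicle libraries.

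**Figure D2:**
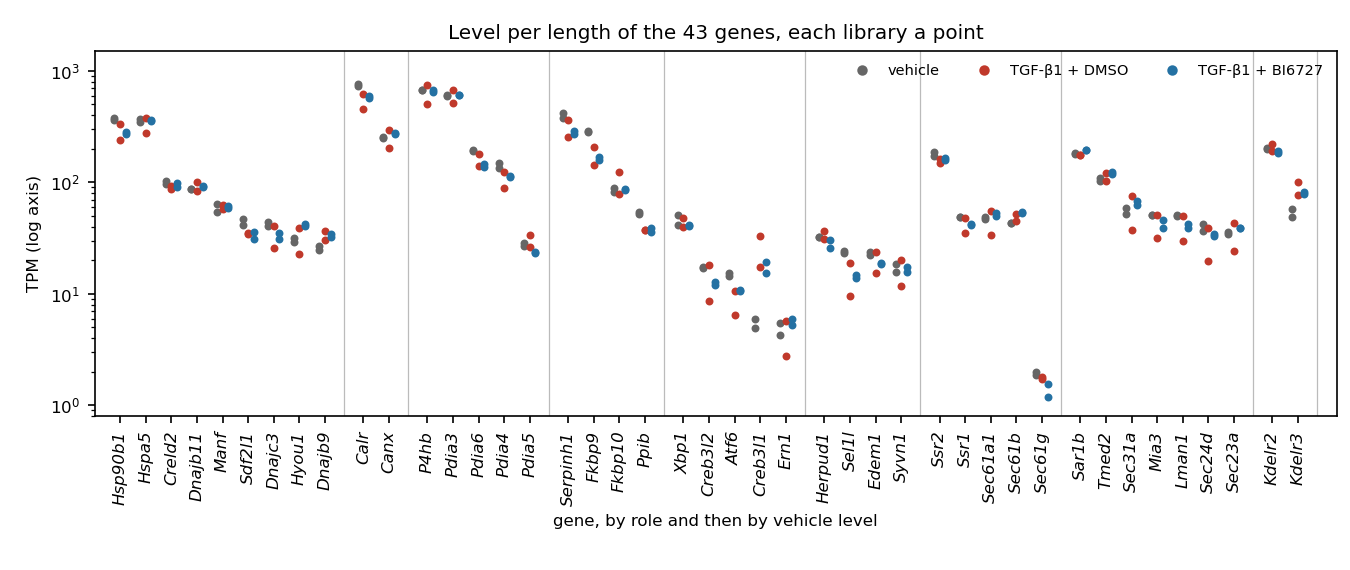
Level per length of each of the 43 genes in TPM on a log axis (y axis), grouped by role and ordered by vehicle level within a role (x axis), with a point for each library coloured by group. Calr, P4hb and Pdia3 lie near 600 to 750 TPM in vehicle and Sec61g near 2 TPM, and Creb3l1 is the gene whose treated points stand farthest above its vehicle points.

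Many ER chaperone genes carry the ER stress response element (ERSE) in their promoters, which ATF6 and XBP1 bind together with the CCAAT-binding factor NF-Y. The element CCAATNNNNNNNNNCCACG was searched on both strands of RefSeq promoter windows (GRCm38.p6, 250 bases before to 50 after the start site), which the reference held for 33 of the 43 members. It was found in 8 of these 33 genes (24.2%), against 0.119% of all 32851 promoter windows. The related ERSE-II (ATTGGNCCACG) was found in 2 members (6.06% against 0.0365%), the element TGACGTGG (UPRE) in 3 members, Kdelr3, Sec23a and Sec24d (9.09% against 0.676%), and the cyclic AMP response element TGACGTCA in 0 (against 1.79%). UPRE and the cyclic AMP response element share their first 6 letters, and both ERSE forms end in the same 5. A match is a description of the sequence, and not evidence of binding. The sites are printed in motif direction with 5 flanking bases, to show which members carry the element whose genes the results below follow. Capitals mark the fixed bases of ERSE, or the whole ERSE-II, and positions are counted from the start site.
Calr (window chr8:84846882-84847181, minus strand, site at -162 to -144): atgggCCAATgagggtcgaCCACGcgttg
Canx (window chr11:50325624-50325923, minus strand, site at -145 to -127): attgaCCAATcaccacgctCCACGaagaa
Creld2 (window chr15:88819396-88819695, plus strand, site at -126 to -108): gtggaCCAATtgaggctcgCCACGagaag
Dnajc3 (window chr14:118937682-118937981, plus strand, site at -105 to -87): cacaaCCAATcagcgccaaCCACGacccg
Hsp90b1 (window chr10:86705395-86705694, minus strand, site at -212 to -194): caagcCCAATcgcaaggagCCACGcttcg
Hsp90b1 (window chr10:86705395-86705694, minus strand, site at -107 to -89): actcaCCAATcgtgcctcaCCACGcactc
Hspa5 (window chr2:34771840-34772139, plus strand, site at -65 to -47): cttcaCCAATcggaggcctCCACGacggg
Pdia6 (window chr12:17266339-17266638, plus strand, site at -98 to -80): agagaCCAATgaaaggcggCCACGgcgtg
Syvn1 (window chr19:6046326-6046625, plus strand, site at -44 to -26): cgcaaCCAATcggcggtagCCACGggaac
Dnajb11 (window chr16:22857595-22857894, plus strand, site at 7 to 17): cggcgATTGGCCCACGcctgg
Herpud1 (window chr8:94386179-94386478, plus strand, site at -52 to -42): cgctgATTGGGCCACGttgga

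The 250 bases before the start site of Hspa5 (chr2:34771840-34772089, plus strand, GRCm38.p6) are printed because this gene is the standard readout of the response, with the fixed bases of its ERSE in capitals at -65 to -47. The start site used here is that of RefSeq, and the Gencode gene begins upstream of it.
Hspa5: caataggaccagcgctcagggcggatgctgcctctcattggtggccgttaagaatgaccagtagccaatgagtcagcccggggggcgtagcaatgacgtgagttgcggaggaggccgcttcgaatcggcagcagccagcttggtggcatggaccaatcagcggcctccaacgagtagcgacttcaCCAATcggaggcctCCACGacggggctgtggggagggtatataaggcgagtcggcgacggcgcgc
The same stretch of Kdelr3 (chr15:79516158-79516407, plus strand), a member that rose with TGF-β1, holds no ERSE and a UPRE on the minus strand at -30 to -23, in capitals.
Kdelr3: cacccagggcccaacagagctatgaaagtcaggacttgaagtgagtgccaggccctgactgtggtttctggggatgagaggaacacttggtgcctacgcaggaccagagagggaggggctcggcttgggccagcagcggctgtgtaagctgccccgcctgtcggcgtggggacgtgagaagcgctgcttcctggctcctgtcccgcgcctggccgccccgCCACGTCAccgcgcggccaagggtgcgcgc
The RefSeq window of Dnajb9 held none of these elements, and Creb3l1 was not among the 33 genes with a window. For Dnajb9, the 250 bases before the RefSeq start site (chr12:44210069-44210318, minus strand) lie within the Gencode gene. Sequence upstream of its Gencode start at 44210326 was not searched.

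The first comparison asks what TGF-β1 with its solvent did to these genes. Most did not pass the test. Of 42 members, 3 rose (Creb3l1, Kdelr3 and Dnajb9) and 4 fell (Atf6, Sel1l, Fkbp9 and Calr) at an adjusted p below 0.05 (edgeR quasi-likelihood test, Benjamini-Hochberg adjustment over 9518 genes). These shares, 7.14% and 9.52%, lie near those of all genes tested, of which 11.0% were called higher and 12% lower. At an adjusted p below 0.01 and a fold change above 2, 1 member (Creb3l1) was called, against 5.10% of all genes. The study names this fold minimum with its results and a lower one in its methods. At an adjusted p below 0.01 with no fold minimum, 2 members were higher and 1 lower, against 4.92% and 4.91% of all genes. The median log2 change of the members was -0.0037 (range -0.71 to 2.30), beside -0.0045 over all genes, with 20 members above 0 and 22 below. Both TGF-β1 + DMSO libraries lay above both vehicle libraries for 11 members (26.2%) and below them for 13 (31.0%). Over all 9518 genes this held for 2834 and 3152, so that a lack of overlap was common in this comparison. Leaving out TGF-β1 + DMSO replicate 1 gave 10 higher and 16 lower, against 28.3% and 31.2% of all genes, and leaving out replicate 2 gave 7 and 6, against 19.3% in each direction. With length offsets 3 were higher and 8 lower, against 15.9% and 17.7% of all genes, the lower ones being Hsp90b1, Pdia4, Serpinh1 and Ppib beside the 4 above. Called higher both without TGF-β1 + DMSO replicate 1 and without replicate 2 were Creb3l1, Kdelr3, Dnajb9 and Fkbp10. Called lower in both of these fits were Atf6, Sel1l, Fkbp9, Calr and Pdia4. Here and below, a fit that leaves 1 library in a group takes its spread from the other groups. A call gained in such a fit adds no support. Without vehicle replicate 1 or replicate 2, 2 members were called higher (Creb3l1 and Kdelr3) and 0 lower, against 2.61% to 3.28% and 2.79% to 3.74% of all genes. Without a BI6727 library, which lends its spread to the fit, 2 were higher (Creb3l1 and Kdelr3) and 2 lower (Fkbp9 and Atf6), against 6.16% to 6.35% and 6.81% to 6.92%.

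**Figure D3:**
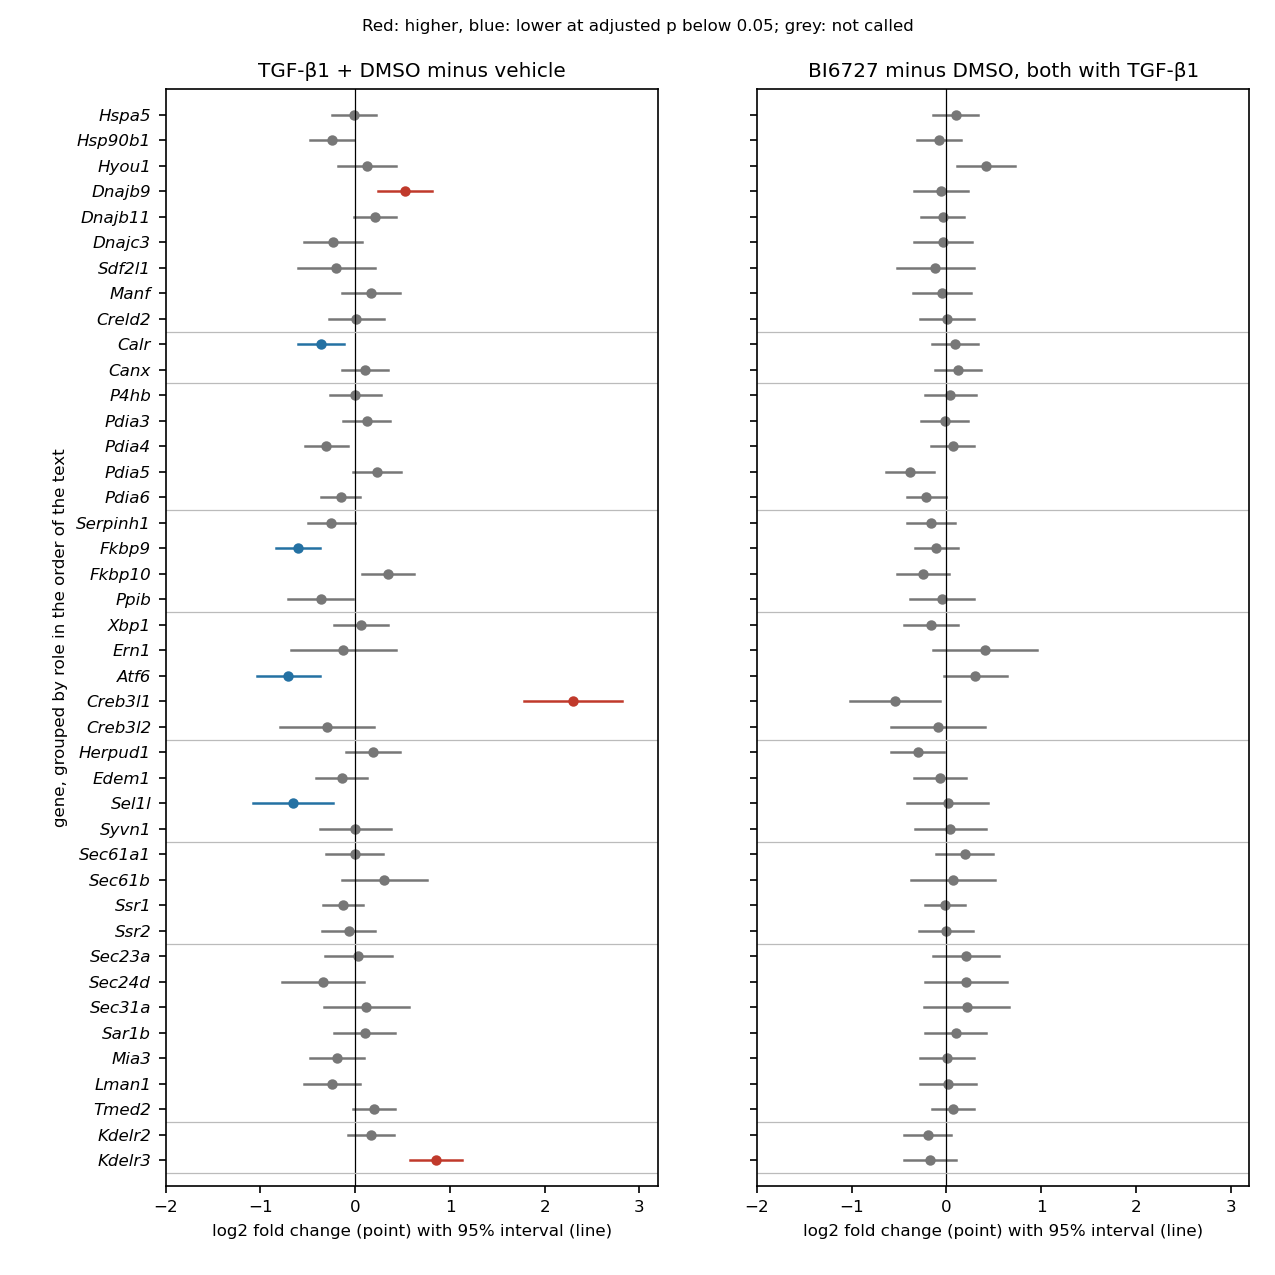
Fitted log2 fold change of each of the 42 members tested (point) with its 95% interval (line), for TGF-β1 + DMSO minus vehicle on the left and BI6727 minus DMSO, both with TGF-β1, on the right. On the left 3 members in red and 4 in blue pass an adjusted p of 0.05 and Creb3l1 stands alone at 2.30, and on the right no member passes.

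Among the sensors and transcription factors, 1 of 5 rose and 1 fell. Creb3l1 (chr2:91982328-92024502, minus strand, mm10) encodes OASIS, a membrane-bound transcription factor of the ER known for activating the type I collagen gene in bone. It had 7.84 and 6.55 normalized CPM in the vehicle libraries, 41.7 and 29.1 with TGF-β1 + DMSO and 22.1 and 26.4 with TGF-β1 + BI6727. Every treated library lay above both vehicle libraries. The rise against vehicle was 4.92-fold, a log2 change of 2.30 (SE 0.22, adjusted p = 0.000579) with a 95% interval of 1.78 to 2.82, and it stayed below an adjusted p of 0.05 in each alternative fit. Per length, its level went from 5.43 ± 0.730 to 25.1 ± 10.8 TPM (mean ± SD, n = 2). Atf6 (chr1:170704674-170867771, minus strand), the sensor that is itself cut into a transcription factor, had 67.9 and 73.1 normalized CPM in vehicle, 48.4 and 38.0 with TGF-β1 + DMSO and 55.6 and 51.3 with BI6727. Its fall was 1.63-fold, a log2 change of -0.71 (SE 0.14, adjusted p = 0.0123). Without vehicle replicate 1 or 2 its adjusted p was 0.0892 and 0.112, at log2 changes of -0.77 and -0.65.

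The remaining regulators did not pass. Xbp1, whose spliced mRNA encodes the transcription factor of the IRE1 branch, read 83.9 and 69.7 normalized CPM in vehicle, 77.0 and 83.4 with TGF-β1 + DMSO and 74.3 and 69.2 with BI6727, with overlapping groups and a log2 change of 0.062 (95% interval -0.22 to 0.35). Ern1 (IRE1) read 17.7 and 23.1, 22.9 and 14.5 and 23.9 and 25.6 in the same order. Its change of -0.13 (95% interval -0.68 to 0.43) became 0.18 without TGF-β1 + DMSO replicate 2 and 0.082 without vehicle replicate 2. Creb3l2, which encodes the OASIS relative BBF2H7 and is known for its role in cartilage secretion, read 64.8 and 63.8 in vehicle, 64.8 and 39.9 with TGF-β1 + DMSO and 51.9 and 46.5 with BI6727. The TGF-β1 + DMSO replicates disagree here, the first lying at the vehicle level and the second below it.

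**Figure D4:**
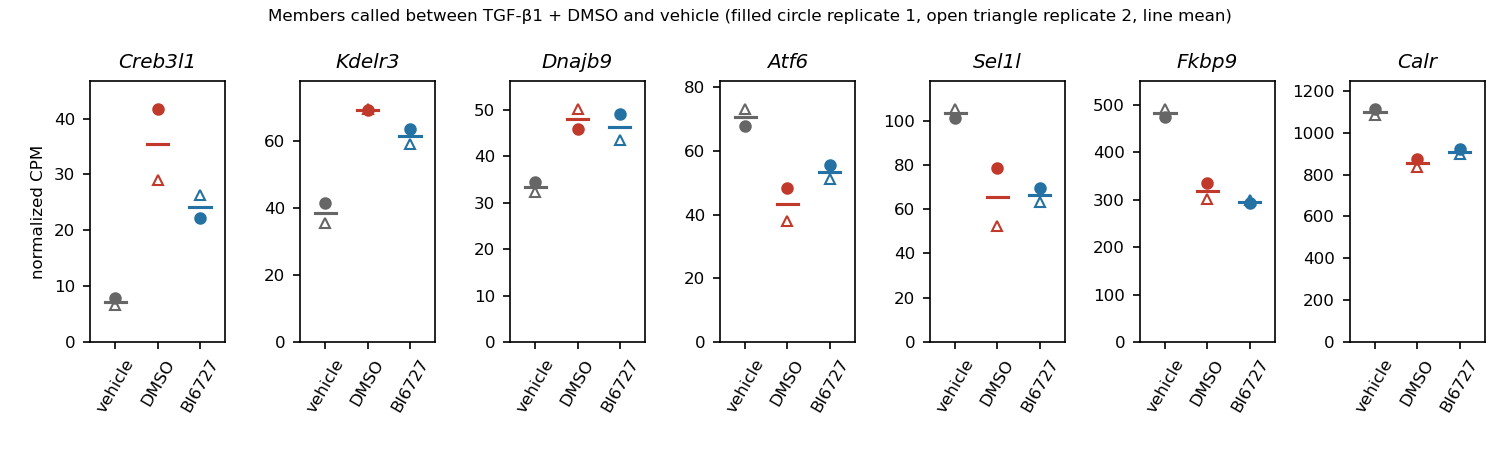
Normalized CPM (y axes, each starting at 0) of the 7 members called between TGF-β1 + DMSO and vehicle, with filled circles for replicate 1, open triangles for replicate 2 and lines for the mean of each group, the columns marked DMSO and BI6727 being the groups with TGF-β1. In each panel both DMSO libraries lie on the same side of both vehicle libraries, and the BI6727 libraries lie on that side too.

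Of 9 folding chaperones and cochaperones, 1 rose and 0 fell. Hspa5 (chr2:34771970-34777547, plus strand), the BiP gene, read 788 and 756 normalized CPM in vehicle, 781 and 749.7 with TGF-β1 + DMSO and 833 and 804 with BI6727. The first 2 groups overlap, and the log2 change of -0.013 had a 95% interval of -0.25 to 0.22. Dnajb9 (chr12:44205559-44210326, minus strand), the BiP cochaperone ERdj4 and a known target of spliced XBP1, was the member that rose. It went from 34.4 and 32.3 normalized CPM in vehicle to 45.9 and 50.2 with TGF-β1 + DMSO and read 49.1 and 43.5 with BI6727, above vehicle in all 4 treated libraries. The rise was 1.44-fold, a log2 change of 0.53 (SE 0.12, adjusted p = 0.0212). It lost its call without vehicle replicate 1 or 2 (adjusted p = 0.130 and 0.164), without BI6727 replicate 1 or 2 (0.0568 and 0.0581) and with only the 2 groups fitted (0.0534). Hsp90b1 (GRP94), the ER member of the HSP90 family, read 746 and 775 in vehicle, 666 and 619 with TGF-β1 + DMSO and 610.0 and 609.5 with BI6727. Its log2 change of -0.24 (SE 0.10, adjusted p = 0.122) was called without TGF-β1 + DMSO replicate 1 (-0.30, adjusted p = 0.00169). The other 6 (Hyou1, Dnajb11, Dnajc3, Sdf2l1, Manf and Creld2) had log2 changes between -0.23 (Dnajc3) and 0.21 (Dnajb11), none called.

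Of the lectin chaperones, which hold glycoproteins until they are folded, 1 of 2 fell. Calr (chr8:84841850-84846934, minus strand), the soluble calreticulin and the most expressed member per length in vehicle, read 1114 and 1084 normalized CPM in vehicle, 877 and 836 with TGF-β1 + DMSO and 922 and 899 with BI6727. All 4 treated libraries lay below both vehicle libraries. The fall was 1.28-fold, a log2 change of -0.36 (SE 0.10, adjusted p = 0.0449). Its adjusted p rose to 0.259 and 0.213 without vehicle replicate 1 and 2, to 0.141 and 0.137 without BI6727 replicate 1 and 2, and to 0.155 with only the 2 groups fitted. Canx, the membrane-bound calnexin, had a log2 change of 0.10 (95% interval -0.14 to 0.34). Of the 5 protein disulfide isomerases, 0 were called. Pdia4 (ERp72) came closest, with 182 and 165 in vehicle, 145 and 136 with TGF-β1 + DMSO and 149 and 145 with BI6727, no overlap with vehicle, and a log2 change of -0.31 (SE 0.097, adjusted p = 0.0596). Without TGF-β1 + DMSO replicate 1 or 2 it was called (adjusted p = 0.00139 and 0.0245). P4hb, Pdia3, Pdia5 and Pdia6 had log2 changes from -0.15 (Pdia6) to 0.23 (Pdia5).

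Of the 4 collagen folding genes, 1 fell and 0 rose. Fkbp9 (chr6:56832059-56879358, plus strand), a prolyl isomerase of the ER lumen, went from 475 and 491 normalized CPM in vehicle to 334 and 301 with TGF-β1 + DMSO and 292 and 298 with BI6727. The 4 treated libraries all lay below vehicle. The fall was 1.52-fold, a log2 change of -0.60 (SE 0.097, adjusted p = 0.00529), and its adjusted p was 0.0649 and 0.0714 without vehicle replicate 1 and 2. Fkbp10 (FKBP65), an isomerase in whose absence collagen cross-linking is impaired, read 122 and 134 in vehicle, 178 and 149 with TGF-β1 + DMSO and 142 and 133 with BI6727. Its log2 change of 0.35 (SE 0.12, adjusted p = 0.0721) was positive where the other 3 were negative, and it was called without TGF-β1 + DMSO replicate 1 (0.21, adjusted p = 0.0436) or replicate 2 (0.48, adjusted p = 0.000144). Serpinh1, the collagen chaperone HSP47, read 520.0 and 474 in vehicle, 430.3 and 403 with TGF-β1 + DMSO and 391 and 353 with BI6727. The groups do not overlap, and its log2 change was -0.25 (SE 0.11, adjusted p = 0.126), called without TGF-β1 + DMSO replicate 1 (-0.31, adjusted p = 0.00408). Ppib, cyclophilin B, read 91.4 and 87.9 in vehicle, 60.3 and 79.0 with TGF-β1 + DMSO and 71.6 and 63.2 with BI6727, a log2 change of -0.36 (SE 0.15, adjusted p = 0.112), called without TGF-β1 + DMSO replicate 2 (-0.56, adjusted p = 0.000131). In the Gencode models 25% of the exonic bases of Ppib lie in Snx22, so that its reads are uncertain.

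Of 4 genes of ER-associated degradation, which removes misfolded proteins to the proteasome, 1 fell. Sel1l (chr12:91806043-91849157, minus strand) encodes the adaptor that holds the ubiquitin ligase HRD1 (Syvn1) in its complex. It read 101 and 105 normalized CPM in vehicle, 78.7 and 52.4 with TGF-β1 + DMSO and 69.4 and 63.1 with BI6727. Both TGF-β1 groups lay below vehicle, and the TGF-β1 + DMSO replicates were far apart. The fall was 1.57-fold, a log2 change of -0.65 (SE 0.18, adjusted p = 0.0391). It was -0.98 without TGF-β1 + DMSO replicate 1 and -0.38 without replicate 2. The call was lost without vehicle replicate 1 or 2 (adjusted p = 0.182 and 0.205), without BI6727 replicate 1 or 2 (0.0827 and 0.0801) and with only the 2 groups fitted (0.0847). Syvn1 itself had a log2 change of -0.00054 (95% interval -0.37 to 0.37), Edem1, which extracts misfolded glycoproteins, -0.14, and Herpud1, a stress-induced partner of the complex, 0.19.

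None of the genes of the translocon and the COPII coat, which serve entry into and exit from the ER, was called. The 4 translocon members tested had log2 changes from -0.13 (Ssr1) to 0.31 (Sec61b). The 7 genes of COPII coat and export ranged from -0.34 for the cargo-binding coat subunit Sec24d to 0.20 for the p24 family member Tmed2, with 4 above 0 and 3 below. Mia3, which encodes the collagen export receptor TANGO1, read 115 and 115 normalized CPM in vehicle and 111 and 90.4 with TGF-β1 + DMSO, a log2 change of -0.19 (95% interval -0.48 to 0.093). The outer coat gene Sec31a shows how far the TGF-β1 + DMSO replicates can part. It read 233 and 210.2 in vehicle and 293 and 188 with TGF-β1 + DMSO, so that 1 replicate lay above vehicle and the other below. It was called higher without TGF-β1 + DMSO replicate 2 and lower without replicate 1, as was the inner coat gene Sec23a.

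The KDEL receptors recapture chaperones that carry the KDEL signal, and 1 of 2 rose. Kdelr3 (chr15:79516411-79527739, plus strand) read 41.5 and 35.4 normalized CPM in vehicle, 69.2 and 69.6 with TGF-β1 + DMSO and 63.7 and 59.2 with BI6727, with no overlap between any pair of groups. The rise against vehicle was 1.80-fold, a log2 change of 0.85 (SE 0.12, adjusted p = 0.00291) with a 95% interval of 0.57 to 1.13, and it stayed below an adjusted p of 0.05 in each alternative fit. Its paralogue Kdelr2 is expressed at 203 ± 3.95 TPM in vehicle against 53.5 ± 6.37 TPM for Kdelr3 (mean ± SD, n = 2). Kdelr2 read 185 and 192 normalized CPM in vehicle and 198 and 226 with TGF-β1 + DMSO, a log2 change of 0.17 (SE 0.10, adjusted p = 0.275).

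Set against the promoter sequences, the 10 members with an ERSE or ERSE-II site in the window were all tested, and with TGF-β1 + DMSO 0 rose and 1 (Calr) fell, with a median log2 change of -0.0066 (range -0.36 to 0.21). Of the 22 tested members whose window held neither, 2 rose and 2 fell, with a median of -0.13 (range -0.65 to 0.85). The Hspa5, Hsp90b1, Pdia6, Canx and Dnajc3 genes, printed above with their sites, are among the 9 of the first set that were not called. No test was made between these sets.

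**Figure D5:**
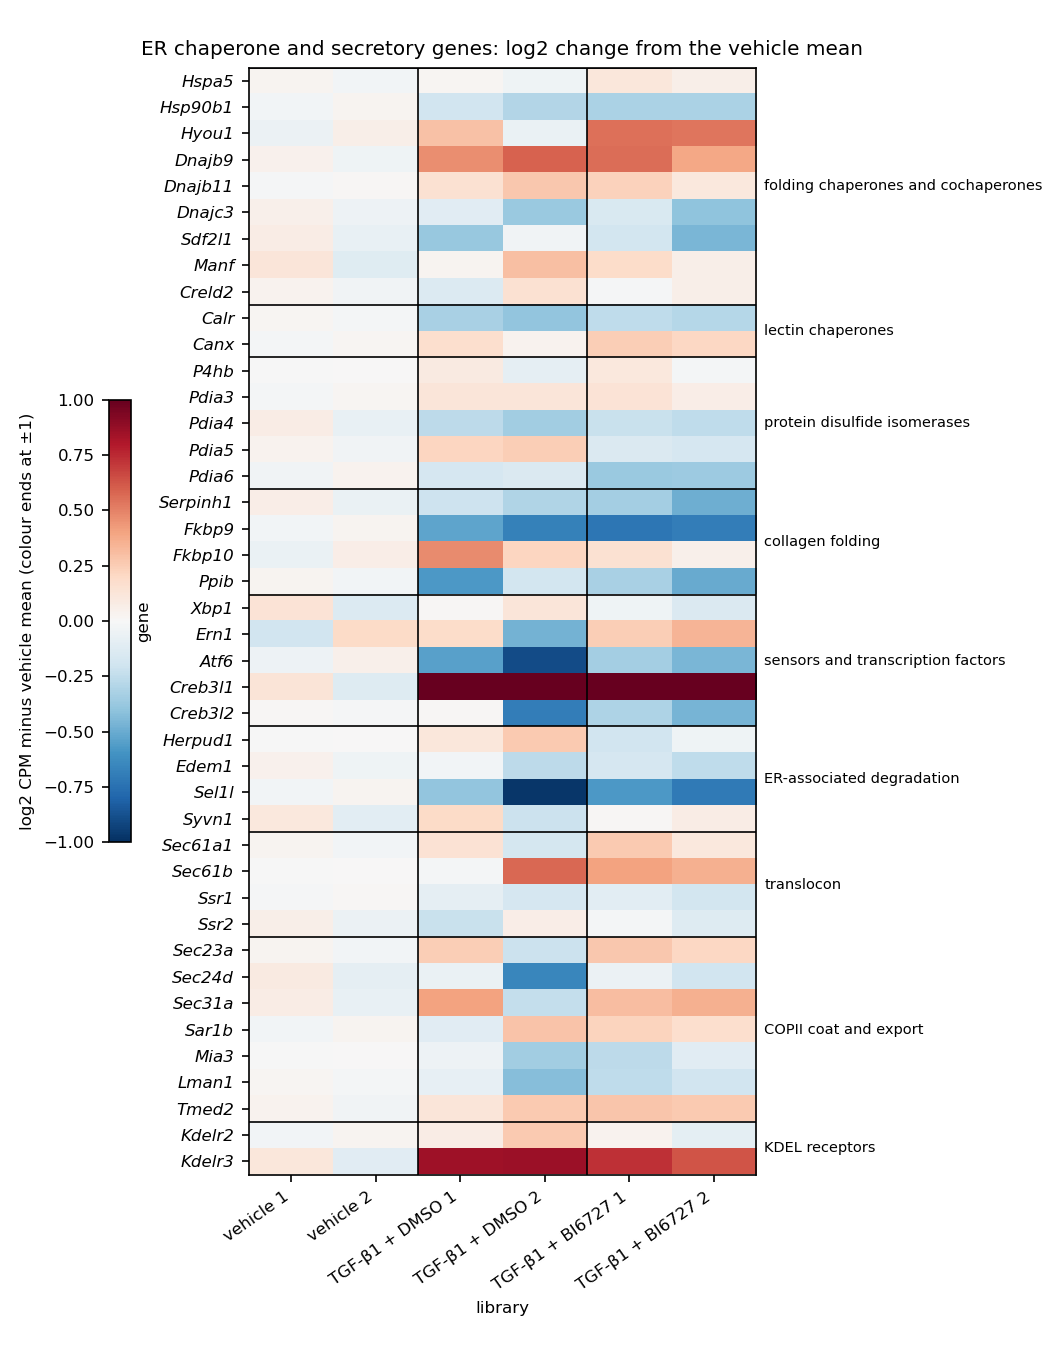
Log2 change from the vehicle mean of each of the 42 members tested (y axis, grouped by role) in each of the 6 libraries (x axis), with red for higher, blue for lower and the colours ending at 1 and -1. Creb3l1 and Kdelr3 are red in all 4 treated libraries, Fkbp9, Atf6 and Sel1l are blue in them, and most other genes are pale or differ between the TGF-β1 + DMSO replicates.

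The second comparison asks what the PLK1 inhibitor changed under TGF-β1. Between TGF-β1 + BI6727 and TGF-β1 + DMSO, 0 of 42 members were called higher and 0 lower (edgeR quasi-likelihood test), and the same was true of all genes (0% and 0%, smallest adjusted p = 0.0565). DESeq2 also called 0 members, and 2 higher and 37 lower genes in all. At an unadjusted p below 0.05 there were 5 members (11.9%), against 6.68% of all genes. The BI6727 libraries both lay above both DMSO libraries for 7 members (16.7%, against 17.0% of all genes) and below them for 11 (26.2%, against 17.1%). The median log2 change was -0.010 (range -0.54 to 0.42), beside -0.0028 over all genes. These libraries share the TGF-β1 + DMSO group with the first comparison. Leaving out TGF-β1 + DMSO replicate 1 gave 9 members higher and 4 lower, against 16.4% and 15.3% of all genes, and leaving out replicate 2 gave 1 and 4, against 2.37% and 4.40%. Each of these fits takes the spread of its lone TGF-β1 + DMSO library from the other groups. A call in both, as for Pdia5 alone, therefore adds no support.

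The members with the smallest p were disulfide isomerases, a chaperone and factors of different roles. Pdia5, a disulfide isomerase, read 45.5 and 46.5 normalized CPM with TGF-β1 + DMSO, 35.4 and 34.9 with BI6727 and 40.2 and 38.2 in vehicle, so that BI6727 libraries were the lowest of the 6. Its log2 change from DMSO to BI6727 was -0.39 (SE 0.11, adjusted p = 0.597). Hyou1, the exchange factor GRP170 that resets BiP, read 137 and 106 with DMSO and 163 and 162 with BI6727. Its log2 difference was 0.42 (SE 0.13, adjusted p = 0.659), with the BI6727 libraries above all others. For Creb3l1 the difference was -0.54 (SE 0.20, adjusted p = 0.708), with a 95% interval of -1.02 to -0.065, its BI6727 libraries lying between the vehicle and DMSO libraries. Herpud1 read 41.6 and 46.1 with DMSO and 33.7 and 37.5 with BI6727, and Pdia6 read 329 and 334 and 285 and 287. Their log2 changes were -0.30 (SE 0.12, adjusted p = 0.725) and -0.21 (SE 0.089, adjusted p = 0.738). For Atf6 it was 0.31 (SE 0.14, adjusted p = 0.745), again with its BI6727 libraries between those of vehicle and DMSO. None of these 6 was called. Without TGF-β1 + DMSO replicate 1, the log2 change was 0.61 for Hyou1, 0.49 for Atf6, -0.26 for Creb3l1 and -0.40 for Pdia5. Without replicate 2 it was 0.24, 0.13, -0.79 and -0.38 in the same order. For Herpud1 and Pdia6 it was -0.37 and -0.22 without replicate 1. These fits leave 1 TGF-β1 + DMSO library and take its spread from the other groups, so only the size of the change is given. An adjusted p above the threshold does not show equal levels, and for Hspa5 the difference of 0.097 had a 95% interval of -0.14 to 0.33.

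By role, all 7 genes of COPII coat and export had log2 changes above 0 between BI6727 and DMSO (0.0094 to 0.21), and for each of the 7 the libraries of the 2 groups overlapped. Of all 9518 genes, 4703 were above 0. All 4 collagen folding genes were below 0, from -0.25 (Fkbp10) to -0.048 (Ppib), and for 3 of them both BI6727 libraries lay below both DMSO libraries, as for 17.1% of all genes. Both lectin chaperones were above 0 (0.089 and 0.12) with no overlap of libraries, as for 17.0% of all genes in that direction. Both KDEL receptors were below 0 (-0.20 and -0.18), also with no overlap, as for 17.1% of all genes. The other roles held both signs, with 3 genes above 0 and 6 below among folding chaperones, 2 and 3 among disulfide isomerases and among sensors and transcription factors, and 2 and 2 in ER-associated degradation and in the translocon. None of these differences passed the test. Without TGF-β1 + DMSO replicate 1, the longer coat genes Sec23a (4840 exonic bases), Sec24d (6325) and Sec31a (7884) were called higher with BI6727. Without replicate 2, the short GTPase gene Sar1b (1255 exonic bases) was the member called higher.

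The third comparison sets TGF-β1 + BI6727 against vehicle, and shares the vehicle libraries with the first. Here 4 of 42 members rose (Creb3l1, Kdelr3, Hyou1 and Dnajb9), against 11.3% of all genes, and 4 fell (Fkbp9, Sel1l, Serpinh1 and Pdia6), against 13.2%. The median log2 change was -0.052, beside 0.0029 over all genes. Creb3l1 was higher by 1.76 (SE 0.22, adjusted p = 0.00174), where the first comparison gave 2.30. Kdelr3 was higher by 0.68 (SE 0.12, adjusted p = 0.00704), beside 0.85, and Dnajb9 by 0.47 (SE 0.12, adjusted p = 0.0296), beside 0.53. Hyou1 rose by 0.54 (SE 0.13, adjusted p = 0.0241) on the log2 scale, beside 0.12 with DMSO. The falls were -0.71 for Fkbp9 (adjusted p = 0.00254), -0.64 for Sel1l (0.0403), -0.42 for Serpinh1 (0.0287) and -0.37 for Pdia6 (0.0238), beside -0.60, -0.65, -0.25 and -0.15 with DMSO. A member called in only 1 of these comparisons is not thereby shown to differ between BI6727 and DMSO, since that difference was called for none. Fitted without either TGF-β1 + DMSO library, or on the 4 libraries of these groups alone, 12 members were higher and 16 lower, against 26.5% to 26.7% and 27.3% to 27.5% of all genes. With length offsets 6 were higher and 9 lower, against 17.0% and 18.7%. Without a vehicle library 1 or 2 were higher and 1 lower, against 2.83% to 3.35% and 3.67% to 4.39%, and without a BI6727 library 1 was higher and 0 or 1 lower, against 3.51% to 3.54% and 3.54% to 4.16%. Creb3l1 was called higher in each of these fits.

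The rest of the pathway was read from 146 further genes in 11 lists, of which 137 were tested. These lists were written with earlier results of these data known. With TGF-β1 + DMSO 21 rose and 16 fell of 137, against 11.0% and 12% of all genes tested, with a median log2 change of -0.00056. With TGF-β1 + BI6727 against vehicle 18 rose and 21 fell, against 11.3% and 13.2%, and between BI6727 and DMSO 0 were called. The PERK and ATF4 arm is the branch whose sensor and main factors are not among the 43 members. With TGF-β1 + DMSO against vehicle it had 6 of 8 genes higher and 1 lower, with a median of 1.05. With TGF-β1 + BI6727 against vehicle it had 4 higher and 1 lower, with a median of 0.80. With TGF-β1 + DMSO, the largest rises among the 137 genes tested were in this arm. Each of its 6 higher genes (Atf4, Ddit3, Trib3, Ppp1r15a, Chac1 and Atf3) read higher in TGF-β1 + DMSO replicate 2 than in replicate 1. Atf4 and Ddit3 lay near the threshold (adjusted p = 0.0396 and 0.0419, edgeR quasi-likelihood test). Eif2ak3, the gene of the sensor PERK, was not called and changed in the other direction. Its log2 change against vehicle was -0.28 with TGF-β1 + DMSO and -0.44 with TGF-β1 + BI6727 (adjusted p = 0.267 and 0.100, edgeR quasi-likelihood test). The activity of PERK was not measured. The alternative fits given for the members were not read for these genes. Atf3, a stress-induced transcription factor, had 4.26 and 5.05 normalized CPM in vehicle, 16.1 and 27.7 with TGF-β1 + DMSO and 14.3 and 13.2 with BI6727, a log2 change of 2.23 (SE 0.28, adjusted p = 0.00175). Trib3, a pseudokinase induced by ATF4, changed by 1.79 (SE 0.22, adjusted p = 0.00182), and Ppp1r15a (GADD34), which restores translation, by 1.53 (SE 0.14, adjusted p = 0.000414). The largest falls were in Ngly1, the cytosolic glycanase of misfolded glycoproteins, with -1.45 (SE 0.15, adjusted p = 0.000706), Cebpb, a bZIP partner of ATF4, with -1.12 (SE 0.11, adjusted p = 0.000726), and P3h3, a collagen hydroxylase family member, with -0.94 (SE 0.10, adjusted p = 0.000932). With TGF-β1 + DMSO against vehicle, the oligosaccharyltransferase (11 tested) and COPI coat (10 tested) lists had 0 called. Other luminal folding genes had 5 higher and 3 lower of 20, other UPR regulators 0 and 2 of 8, and collagen-modifying enzymes 4 and 3 of 11. Medians of these lists lay between -0.22 and 0.18 outside the PERK and ATF4 arm. With TGF-β1 + BI6727 against vehicle, the oligosaccharyltransferase list had 2 lower and the COPI coat list 1, with 0 higher. Other luminal folding genes then had 3 higher and 7 lower, other UPR regulators 0 and 1, and collagen-modifying enzymes 3 and 3. Between BI6727 and DMSO the median of the PERK and ATF4 arm was -0.26, with none called.

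Reads of some members are uncertain because other genes hold the same bases. Besides Ppib, exonic overlap with other gene models covered 15.7% of Hsp90b1, 12.8% of Ssr2, 9.25% of Manf, 8.90% of Sec23a, 8.16% of Sec61a1 and 6.58% of Fkbp10. Windows of 50 bases shared with other transcripts, mostly gene models without an established name, made up 30.8% of Ppib, 22% of Tmed2, 17.4% of Sec61b, 14.8% of Sec61g and 5.50% of Dnajb9. For Creb3l1, Atf6, Sel1l, Fkbp9 and Calr no exonic base lay in another gene model.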

How the data were processed

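RNA-seq of 6 NIH/3T3 libraries was analysed. The authors depleted rRNA, sequenced single-end 50-cycle reads on a BGISEQ-500, mapped them with Subjunc 1.6.4 to mm10, counted them on Gencode M20 genes with featureCounts 1.6.4, and deposited raw counts per gene. Whether counting used strand is not given in the sources used here. Genes reaching 10 CPM in over 3 libraries (the filter of the study's methods) were fitted in R 4.3.3 with edgeR 4.0.16 (TMM scaling, quasi-likelihood test, all 6 libraries in 1 fit that left 3 residual degrees of freedom), with Benjamini-Hochberg adjustment over the 9518 genes. A gene was called at an adjusted p below 0.05, with no fold minimum. Normalized CPM use TMM-scaled library sizes, and log2 CPM a prior count of 1. TPM were computed from the counts and the exonic lengths in the table, and 95% intervals from the standard error of the fit. With 2 libraries a group, the smallest p that an exact permutation test allows is 0.333, so that tests rest on the fit across genes.

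The members and lists were chosen with earlier results of these data known. Members given library by library were the 12 with the smallest adjusted p between TGF-β1 + DMSO and vehicle, the 6 with the smallest p between BI6727 and DMSO, the 5 sensors and transcription factors, and Hspa5. Of the other pathway genes, the 3 largest rises and 3 largest falls were named. Sec61b, Sec31a, Mia3 and Kdelr2 were also chosen after their values were seen, as were the sequences printed. Alternatives were DESeq2 1.42.0, its size factors, other filters and thresholds, a replicate block, a fit of the 2 groups compared alone, length offsets (a lowess of each library's log2 deviations on exonic length, span 0.3), and each library left out. A crossed block was added after seeing the data. Shared windows came from Gencode M21 transcripts.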

Additional observations from a re-analysis of the deposited data

How the results depend on the processing

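Counts of called members are given in the order higher, lower. Against vehicle, TGF-β1 + DMSO gave 3 and 4. The shares of all genes called higher and lower follow in brackets. The counts became 2 and 2 (6.46% and 6.64%) with only the 2 groups compared, 3 and 8 (15.9% and 17.7%) with length offsets, 3 and 8 (14.5% and 16.5%) with length offsets and the replicate block, 2 and 1 (4.92% and 4.91%) at an adjusted p below 0.01, and 1 and 0 (2.56% and 2.53%) with a fold above 2 as well. Against vehicle, TGF-β1 + BI6727 gave 4 and 4, which became 12 and 16 (26.6% and 27.3%), 6 and 9 (17.0% and 18.7%), 5 and 9 (15.9% and 17.4%), 2 and 1 (4.94% and 5.99%), and 1 and 0 (2.34% and 2.96%) under the same alternatives in that order. Between BI6727 and DMSO 0 and 0 were called under each of them. Leaving out 1 library at a time, the counts ranged from 2 to 10 higher and 0 to 16 lower for TGF-β1 + DMSO, from 1 to 12 and 0 to 16 for TGF-β1 + BI6727, and from 0 to 9 and 0 to 4 between BI6727 and DMSO, while the shares of all genes ranged from 2.61% to 28.3% and 2.79% to 31.2%, from 2.83% to 26.7% and 3.54% to 27.5%, and from 0% to 16.4% and 0% to 15.3%. The lone library of a group is there assumed to vary like the other groups. The median member log2 change ranged from -0.12 to 0.019, from -0.087 to 0.0042 and from -0.062 to 0.024 in the same order. DESeq2 gave 4 and 4, then 4 and 6, then 0 and 0. The other filters and DESeq2's size factors kept each count within 1.5 times.

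Same-numbered replicates deviated with r = -0.11 between vehicle and TGF-β1 + DMSO and 0.047 between vehicle and BI6727. The value was -0.26 between TGF-β1 + DMSO and BI6727. These values cannot show whether same-numbered replicates were handled together, since the TGF-β1 + DMSO replicates also differ by gene length. With the replicate block 3 members were higher and 3 lower with TGF-β1 + DMSO (Calr lost its call), 3 and 3 with BI6727 against vehicle, and 0 and 0 between BI6727 and DMSO. A crossed pairing of the TGF-β1 + DMSO replicates gave 3 and 3, 4 and 5, and 0 and 0.

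Of 540 values of the named members under alternatives, 474 kept direction and side of the threshold, 22 lost their call, 29 gained one and 15 changed sign. The sign changes were small or came with a library left out. Hspa5 against vehicle was 0.00063 with only the 2 groups compared and -0.048 to 0.028 with a library left out. Sel1l between BI6727 and DMSO was -0.025 with length offsets, -0.019 with length offsets and the replicate block, and -0.26 to 0.34 with a library left out. With a library left out, Xbp1 ranged from -0.066 to 0.19, Ern1 from -0.50 to 0.18 and Creb3l2 from -0.70 to 0.022 against vehicle. Between BI6727 and DMSO, Creb3l2 ranged from -0.41 to 0.30, Ppib from -0.23 to 0.15 and Dnajb9 from -0.14 to 0.033. The cause of these changes was not tested.

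The limits are 2 libraries a group, a TGF-β1 + DMSO pair that differs by gene length, and a vehicle group without DMSO. The 95% intervals of most members reach about 0.2 to 0.5 log2 units to either side, so that differences within them were not detectable here. These intervals are not adjusted for the number of genes, so that larger differences could also go uncalled. Between BI6727 and DMSO, Pdia5 had an interval of -0.64 to -0.13 and an adjusted p of 0.597 (edgeR quasi-likelihood test).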
